A study of Mus musculus with 6 samples.

Results

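The 7 genes described here encode coregulators of nuclear receptors, chosen by name from the RNA-seq table of E14Tg2a mouse ESCs and RA-induced Neuronal Cells (NCs). They are the paralogous acetyltransferases Crebbp (CBP) and Ep300 (p300), the p160 coactivators Ncoa1, Ncoa2 and Ncoa3, and the corepressors Ncor1 and Nrip1. All 7 names were found, each on 1 of the 23235 rows of the table. RNA was sequenced from 3 samples of ESCs of the E14Tg2a line kept in LIF, and from 3 samples of the same line grown without LIF in 1 μM RA for 48 h. All 6 samples were taken at passages 37 to 40 of a single parental line, no allele or transgene separates the groups, and each sample joined the RNA of a pair of culture plates.

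Retinoic acid acts through heterodimers of RA receptors and retinoid X receptors. Without ligand these receptors hold corepressor complexes built on scaffolds such as NCoR, which carry the histone deacetylase HDAC3. When RA binds, the corepressors leave and p160 coactivators dock onto the receptor through short leucine-rich motifs. The p160 proteins in turn bring CBP or p300, which acetylate histones and are shared with CREB and many other transcription factors. NRIP1, also named RIP140, docks onto the ligand-bound receptor as coactivators do but recruits CtBP and deacetylases and so represses. CBP is also a known partner of nuclear FGFR1, the protein that the study is about. The comparison of ESCs with NCs shows which of these mRNAs differed in level between the states.

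The deposited table holds 1 FPKM value per gene and condition (fragments scaled to transcript length and to library size), made from the 3 samples of a condition together. No value of a single sample was used here, so no SD is given and no test was run, and the columns of the authors' own comparison were not used. Every ratio between ESCs and NCs is therefore a description of 2 pooled values, and the depth behind it is unknown. A ratio of 2 is the limit on size used by the study, and it is called a 2-fold difference here whether or not it exceeds the spread between samples. Summed over genes, FPKM came to 770592 for ESCs and 628679 for NCs. Over the 13293 genes with at least 1 FPKM in either condition the median log2 ratio (NC/ESC) was -0.03 with the values as deposited. It was 0.26 when each column was rescaled to an equal sum (TPM scale), a uniform shift of 0.29 that matters for genes with small ratios.

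All 7 pluripotency markers examined were at least 2-fold lower in NCs. Pou5f1, which encodes OCT4, had 832 FPKM in ESCs against 37.1 FPKM in NCs. All 6 genes known to respond to RA were at least 2-fold higher, with Cyp26a1, an RA-degrading enzyme, at 0.874 FPKM in ESCs against 215 FPKM in NCs. Of 7 neural markers, 5 were higher in NCs, and 5 reached 1 FPKM in a condition. Of the latter the progenitor genes Sox1 and Pax6 were at least 2-fold higher, and the progenitor gene Nes was 1.42-fold higher. Tubb3, a neuronal tubulin, was 4.43-fold lower at 33.4 FPKM in ESCs against 7.54 FPKM in NCs, and Map2, a neuronal microtubule protein, was 1.35-fold lower at 3.18 and 2.35 FPKM. Dcx, of migrating neurons, and the proneural gene Neurog1 were higher in NCs but stayed below 1 FPKM, at 0.334 and 0.710 FPKM there. The neural markers thus went both ways, and NC is used below as the study's name for the RA-treated cells. The summed level of 4 endoderm markers was 7.15 FPKM in ESCs against 18.4 FPKM in NCs, with Gata6, Sox17 and Foxa2 at least 2-fold higher. For 3 fibroblast markers the sums were 18.9 and 38.2 FPKM, with Col1a1 and Col1a2 higher and Thy1 lower by at least 2-fold. The 4 mesoderm markers summed to 2.17 and 1.26 FPKM, and the 3 trophoblast markers to 34.3 and 5.03 FPKM, most of it Tfap2c, which ESCs also express. The part of such cells in the values below was not tested. In bulk RNA a different share of a cell type and a different amount of RNA per cell cannot be told apart.

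Of the 7 coregulators, 2 were at least 2-fold higher in NCs, Nrip1 and Ncoa2, beside 12.5% of the 13293 genes. None of the 7 was at least 2-fold lower, beside 10.6% of the genes. On the TPM scale the corresponding shares of all genes were 17.7% higher and 7.37% lower, so that 70.6% of the differing genes lay on the higher side in place of 54.0%. The same 2 coregulators were past the limit on that scale and after centring on the median gene. At a limit of 1.5-fold Crebbp joined the higher genes, making 3, beside 20.6% of all genes, and Ncoa3 was the 1 lower gene, beside 19.4%. Ep300, Ncoa1 and Ncor1 were within 1.5-fold. All 7 passed the minimum of 1 FPKM in both conditions, Nrip1 in ESCs by the smallest margin.

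**Figure D1:**
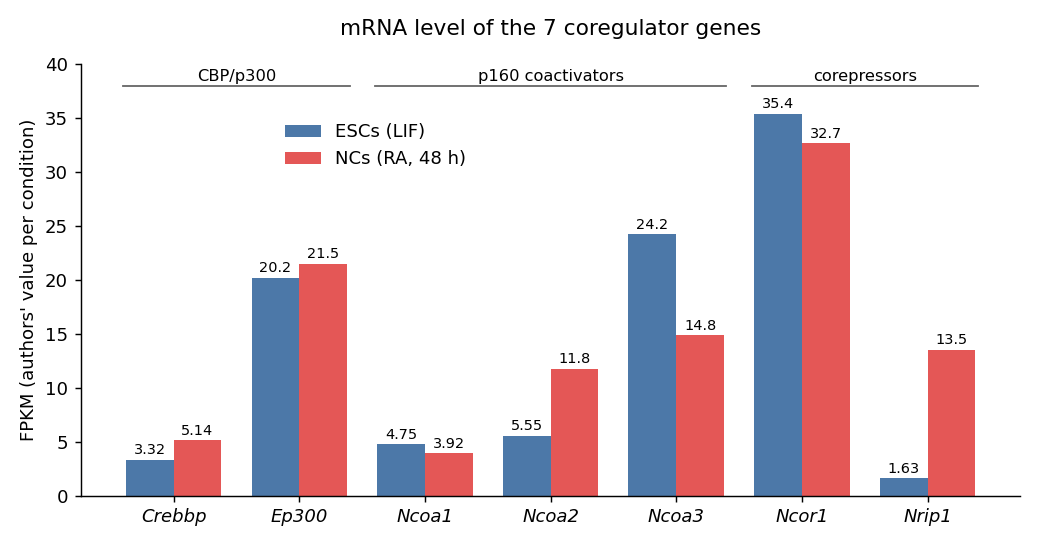
FPKM of the 7 coregulator genes (vertical axis, linear from 0), with the authors' pooled value for ESCs in LIF in blue and for NCs after 48 h in RA in red. Bars carry no error because 1 value per condition was used. Nrip1 is lowest in ESCs at 1.63 FPKM and stands at 13.5 FPKM in NCs, whereas Ncor1 is the highest gene in both.

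The order of the levels differed between the states. In ESCs it was Ncor1, Ncoa3, Ep300, Ncoa2, Ncoa1, Crebbp and Nrip1, a span of 21.7-fold from the highest to the lowest. In NCs it was Ncor1, Ep300, Ncoa3, Nrip1, Ncoa2, Crebbp and Ncoa1, a span of 8.34-fold. Of the 21 pairs of genes, 5 had the opposite order in the other condition, and 3 of these 5 involved Nrip1. FPKM is scaled to transcript length, so these levels can be set side by side between genes as estimates. How far they depend on the transcripts assumed for each gene was not tested. Neighbours in the order were often close. Ncoa3 exceeded Nrip1 1.10-fold and Nrip1 exceeded Ncoa2 1.15-fold in NCs, and in ESCs Ncoa2 exceeded Ncoa1 1.17-fold and Ncoa3 exceeded Ep300 1.20-fold. Without values of single samples it cannot be said whether such neighbours differ. The clearest gap in ESCs lay between Ep300 and Ncoa2, at 3.64-fold, and it separated 3 abundant from 4 scarcer coregulators. In NCs the largest step was 2.29-fold, between Ncoa2 and Crebbp. The sum over the 7 genes was 95.1 FPKM in ESCs against 103 FPKM in NCs, as deposited.

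Nrip1 had the largest ratio of the 7. It lies on chromosome 16 (76287400 to 76373827, minus strand, mm10), and the annotation joins its exons into 6 separate blocks, the fewest of the 7. Nrip1 mRNA was at 1.63 FPKM in ESCs against 13.5 FPKM in NCs, an 8.29-fold higher value (log2 ratio 3.05). Of the 13293 genes 358 had a larger log2 ratio. In ESCs 13.5% of these genes had a lower level than Nrip1, and in NCs 56.3%. Nrip1 therefore stood among the scarce mRNAs of ESCs and near the middle of the range in NCs. Of the summed FPKM of the 7 genes it made up 1.72% in ESCs and 13.1% in NCs. Adding 1 FPKM to both values, which lowers ratios of scarce genes, gave a log2 ratio of 2.46.

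RefSeq lists a pair of start sites for Nrip1 in the window table of GRCm38.p6, the assembly that mm10 denotes. Both promoter windows are shown because Nrip1 had the largest ratio, and because the windows differ in base composition. Each runs from 250 bases before to 50 bases after a start, 5′ to 3′ on the strand of the gene. Capitals mark RA receptor half-sites (the word AGGTCA, its variant GGGTCA, and the related AGTTCA as well as GGTTCA, on either strand) and GC boxes (GGGCGG, either strand), the word bound by SP1. The upstream window is chr16:76373778-76374077 and the downstream one chr16:76373000-76373299, both on the minus strand.
Nrip1 upstream start: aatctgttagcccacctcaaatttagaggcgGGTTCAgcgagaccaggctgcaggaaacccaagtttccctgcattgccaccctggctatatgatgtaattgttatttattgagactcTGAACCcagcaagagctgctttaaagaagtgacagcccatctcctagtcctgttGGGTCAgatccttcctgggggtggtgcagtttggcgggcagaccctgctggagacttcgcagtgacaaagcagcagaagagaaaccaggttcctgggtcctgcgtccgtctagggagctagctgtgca
Nrip1 downstream start: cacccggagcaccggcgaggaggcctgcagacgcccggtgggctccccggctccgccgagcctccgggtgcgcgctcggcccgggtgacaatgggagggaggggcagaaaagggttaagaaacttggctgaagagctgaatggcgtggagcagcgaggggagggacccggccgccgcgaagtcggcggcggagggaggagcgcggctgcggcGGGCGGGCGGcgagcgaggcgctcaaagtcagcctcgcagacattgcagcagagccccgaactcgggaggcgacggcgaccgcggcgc
The upstream window holds 3 half-sites, whose first bases lie at positions -219, -132 and -78 from the start, the middle one on the opposite strand, and it has no GC box. The downstream window has no half-site and 2 GC boxes that overlap each other. It holds 40 CpG dinucleotides against 6 in the upstream window, where the median over all 32851 windows is 7. A half-site occurred in 43.7% of all windows, so its presence is common. Direct repeats of half-sites spaced by 1, 2 or 5 bases, the arrangements that RA receptor dimers are known to bind, occurred in 0.222%, 0.268% and 0.0974% of windows, and in none of the 7 windows of these genes. Which start was used in these cells cannot be read from a gene-level FPKM.

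Ncor1 (chromosome 11, 62316426 to 62458541, minus strand) encodes NCoR, the scaffold of the corepressor complex on unliganded receptors. It had 35.4 FPKM in ESCs against 32.7 FPKM in NCs, the highest level of the 7 in both. The log2 ratio was -0.11 as deposited and 0.18 on the TPM scale, so its direction depended on the scale. Ncor1 exceeded Nrip1 21.7-fold in ESCs and 2.42-fold in NCs. This ratio is taken within each condition, so no scaling between the conditions can alter it. It was 8.97 times larger in ESCs. The level of Ncor1 exceeded that of 78.9% of genes in ESCs and also of 78.9% in NCs.

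The 4 partners of the NCoR complex examined were also within 2-fold, beside 12.5% of all genes at least 2-fold higher and 10.6% lower. Most genes were thus within the limit too, and the count shows nothing particular to the complex. Hdac3, the deacetylase of the complex, stood at 42.4 and 42.0 FPKM. The subunits were not all alike in direction. Tbl1x was 1.63-fold higher and Gps2 1.52-fold higher in NCs, and Tbl1xr1, the paralog of Tbl1x, was 1.48-fold lower. These 3 kept their directions on the TPM scale. On the TPM scale too, 0 of the 4 partners were past 2-fold in either direction, beside 17.7% of all genes higher and 7.37% lower. Tbl1x lay just under the limit on that scale, with a log2 ratio that rounds to 1.0. Their median log2 ratio was 0.30 as deposited, beside -0.03 over all genes.

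The p160 coactivators differed among themselves in direction. Ncoa2 (chromosome 1, 13139105 to 13374083, minus strand), which encodes the coactivator known as GRIP1 or TIF2, had 5.55 FPKM in ESCs against 11.8 FPKM in NCs. This is 2.12-fold higher (log2 ratio 1.08) and just past the limit, and with 1 FPKM added to both values the log2 ratio was 0.96, within it. Ncoa3 (chromosome 2, 165992636 to 166073242, plus strand), a p160 coactivator known for its amplification in breast cancer, had 24.2 FPKM in ESCs against 14.8 FPKM in NCs. It was 1.63-fold lower in NCs (log2 ratio -0.71, and -0.41 on the TPM scale). Ncoa1 (chromosome 12, 4247362 to 4477182, minus strand), the founding member of the family, had 4.75 FPKM in ESCs against 3.92 FPKM in NCs. Its log2 ratio was -0.28 as deposited and 0.02 on the TPM scale, so no direction can be given for it.

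The makeup of the p160 family differed between the states more than its total. The 3 genes summed to 34.5 FPKM in ESCs against 30.5 FPKM in NCs as deposited. The log2 ratio of this sum was -0.18, smaller in size than the shift of 0.29 on the TPM scale. No direction can thus be given for the total. In ESCs Ncoa3 supplied 70.2% of the sum, Ncoa2 16.1% and Ncoa1 13.8%. In NCs the shares were 48.6% for Ncoa3, 38.5% for Ncoa2 and 12.8% for Ncoa1. Ncoa3 exceeded Ncoa2 4.37-fold in ESCs and 1.26-fold in NCs, a ratio 3.46 times larger in ESCs. Ncoa2 exceeded Ncoa1 1.17-fold in ESCs and 3.0-fold in NCs. These shares and ratios are free of the scaling between conditions, but the spread between samples behind them is not known.

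**Figure D2:**
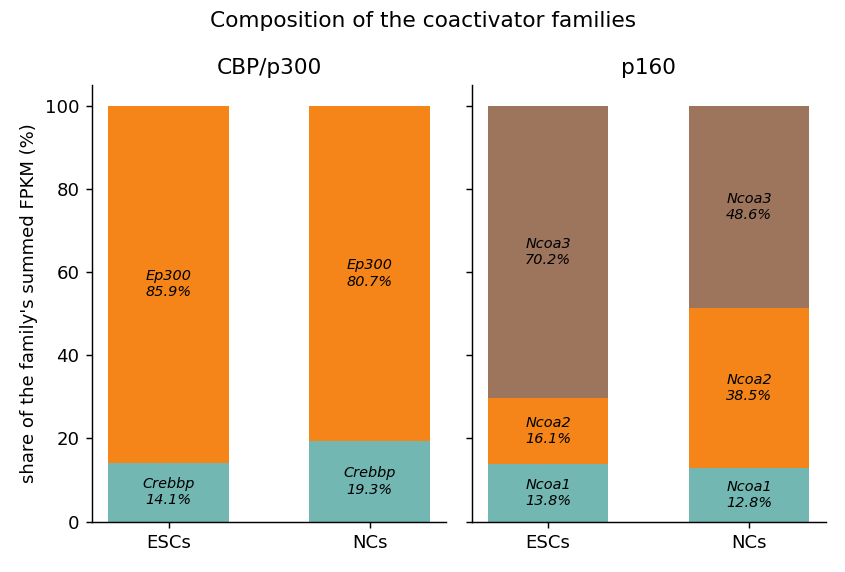
Share of each gene in the summed FPKM of its family (vertical axis, percent), for CBP/p300 and the p160 coactivators, in ESCs and NCs. In the p160 panel Ncoa3 occupies 70.2% of the ESC bar and 48.6% of the NC bar, while Ncoa2 occupies 16.1% and 38.5%, and in the other panel Crebbp occupies 14.1% and 19.3%.

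CBP and p300 are close paralogs that are largely exchangeable in biochemical assays, though mice need both genes. Crebbp (chromosome 16, 4081328 to 4213997, minus strand) had 3.32 FPKM in ESCs against 5.14 FPKM in NCs. This is 1.55-fold higher, with a log2 ratio of 0.63 as deposited and 0.92 on the TPM scale, within the 2-fold limit on both. Ep300 (chromosome 15, 81585351 to 81652077, plus strand) had 20.2 FPKM in ESCs against 21.5 FPKM in NCs, a log2 ratio of 0.09 as deposited and 0.39 on the TPM scale. Ep300 mRNA was thus the more abundant of the pair in both states. It exceeded Crebbp 6.07-fold in ESCs and 4.18-fold in NCs. Crebbp supplied 14.1% of the summed level of the pair in ESCs and 19.3% in NCs. In ESCs 24.4% of genes had a lower level than Crebbp, and 66.3% a lower level than Ep300. In NCs the figures were 31.2% and 69.0%. The sum of both was 1.13-fold higher in NCs as deposited, 26.6 against 23.5 FPKM. The log2 ratio of this sum was 0.18, to which the TPM scale adds the shift of 0.29.

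The promoter windows of the paralogs are shown because their levels were unequal. A link between the windows and the levels was not tested. That of Crebbp is chr16:4213355-4213654 on the minus strand and that of Ep300 chr15:81585964-81586263 on the plus strand, with capitals as before. Both windows, set at RefSeq starts, lie wholly inside the gene spans given above. Sequence at the outer 5′ ends of those spans was thus not searched for motifs.
Crebbp start: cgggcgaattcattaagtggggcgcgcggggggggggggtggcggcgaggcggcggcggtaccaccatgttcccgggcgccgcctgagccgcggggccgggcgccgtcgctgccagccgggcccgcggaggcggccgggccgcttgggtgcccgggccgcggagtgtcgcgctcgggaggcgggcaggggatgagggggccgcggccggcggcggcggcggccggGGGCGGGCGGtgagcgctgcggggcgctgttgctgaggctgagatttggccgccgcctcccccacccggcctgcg
Ep300 start: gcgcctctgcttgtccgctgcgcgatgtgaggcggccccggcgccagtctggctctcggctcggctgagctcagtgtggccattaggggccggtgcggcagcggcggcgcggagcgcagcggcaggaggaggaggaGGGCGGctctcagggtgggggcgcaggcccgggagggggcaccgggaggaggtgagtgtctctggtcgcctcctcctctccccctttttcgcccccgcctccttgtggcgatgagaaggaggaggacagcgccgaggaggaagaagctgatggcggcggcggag
Both windows are rich in CpG, with 49 in Crebbp and 30 in Ep300, more than in 99.0% and 88.3% of all windows. Crebbp has 2 overlapping GC boxes and Ep300 has 1, and a GC box was present in 35.7% of all windows and in 5 of the 7 windows of these genes. Neither window holds an RA receptor half-site, the CREB element TGACGTCA or the shorter word TGACG. The full element occurred in 1.79% and the shorter word, which lies within it, in 20.8% of all windows, and neither was found in any of the 7. RefSeq windows were found for 5 of the 7 genes, with a pair each for Ncor1 and Nrip1. The remaining windows, 1 of Ncoa1 and the pair of Ncor1, held 7 GC boxes in Ncoa1, 2 in one Ncor1 window and a single half-site in the other. Ncoa2 and Ncoa3 had no entry.

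**Figure D3:**
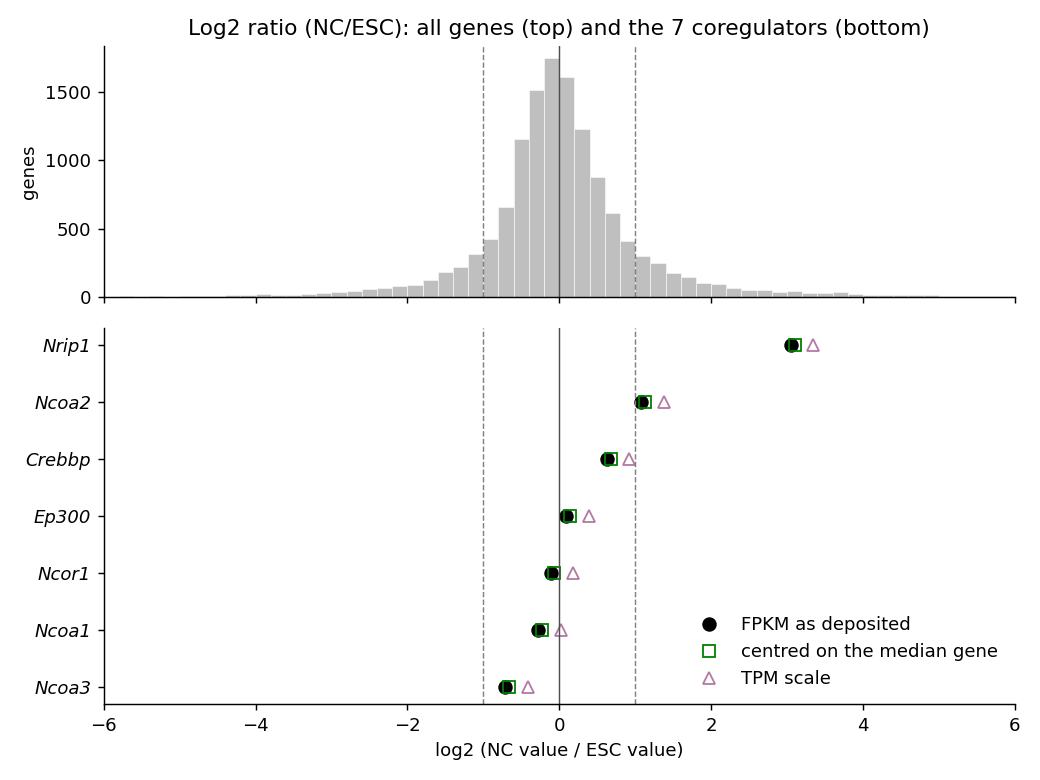
Top, number of genes by log2 ratio of the NC to the ESC value (bins of 0.2) among genes with at least 1 FPKM in either condition, with 141 genes outside the axis or listed at 0 not drawn. Bottom, the log2 ratio of each coregulator with the values as deposited (circles), centred on the median gene (squares) and on the TPM scale (triangles), where dashed lines mark 2-fold. Nrip1, at 3.05, stands apart from the other 6, and Ncor1 and Ncoa1 change side of 0 on the TPM scale.

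Reads of these genes could be told apart from those of other genes over nearly their whole length. Of the 50-base words in their annotated transcripts, at most 1.14% (Ncor1) occurred in a transcript of another gene, and 0 in Ncoa1, Ncoa3 and Nrip1. Crebbp and Ep300 shared no such word with each other, since the only gene to share any with Ep300 was a microRNA gene inside it. Exons of 3 genes meet exons on the opposite strand. In Ncoa3 1.95% of exon bases overlap Sulf2, in Ncoa1 0.793% overlap an antisense transcript, and in Ncor1 0.640% overlap Pigl. Whether reads were counted by strand is not given in the sources used here.

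With the values as deposited the other coactivators were mostly within 2-fold, as were most genes. Of all genes 12.5% were at least 2-fold higher and 10.6% lower. Among 7 further Ncoa and PGC-1 genes, 6 reached 1 FPKM in a condition. Ppargc1a, a coactivator of mitochondrial genes, did not. Ncoa5, Ncoa6 and Ncoa7 had NC values 1.91-fold, 1.63-fold and 1.99-fold higher, within 2-fold as deposited. On the TPM scale these 3 of the 6 were past it, beside 17.7% of all genes, Ncoa6 only just with a log2 ratio of 1.0. Ncoa7 was past it also after centring. Ppargc1b was 2.19-fold lower, at 1.41 FPKM in ESCs against 0.642 FPKM in NCs, and within 2-fold on the TPM scale or with 1 FPKM added. Of 5 histone modifiers that work with p160 proteins, Kat2b, which encodes the acetyltransferase PCAF, was 2.36-fold lower, at 12.7 FPKM in ESCs against 5.39 FPKM in NCs. On the TPM scale its log2 ratio was -0.95, within the limit. The methyltransferase genes Carm1 and Prmt1 had log2 ratios of -0.11 and -0.01 as deposited, and 0.19 and 0.29 on the TPM scale. All 8 Mediator subunits examined, which link receptors to RNA polymerase II, had log2 ratios between -0.22 and 0.19 as deposited. On the TPM scale these lay between 0.07 and 0.49. Med1, the subunit that binds nuclear receptors, had 23.1 FPKM in ESCs against 23.2 FPKM in NCs.

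The receptors served by these coregulators included the gene with the largest ratio of the coregulator and receptor lists. Rarb, itself a known RA target, had 0.128 FPKM in ESCs against 25.5 FPKM in NCs, and Rxra had 5.17 and 19.2 FPKM, 3.72-fold higher. Rarg was 1.97-fold lower, with 33.5 FPKM in ESCs against 17.0 FPKM in NCs (log2 ratio -0.98, and -0.68 on the TPM scale). Rara and Rxrb were within 1.5-fold. Rxrg was low, at 0.661 and 1.09 FPKM, 1.65-fold higher in NCs as deposited and past 2-fold on the TPM scale. Of the 44 genes on the lists beside the 7 coregulators, 42 reached 1 FPKM in a condition, of which 4 were at least 2-fold higher (9.52%, beside 12.5% of all genes) and 3 at least 2-fold lower (7.14%, beside 10.6%). On the TPM scale 10 were higher (23.8%, beside 17.7%) and 1 was lower (2.38%, beside 7.37%). Their median log2 ratio was 0.08, and that of the 7 coregulators was 0.09, beside -0.03 over all genes. These counts and medians are descriptions of lists chosen by hand.

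**Figure D4:**
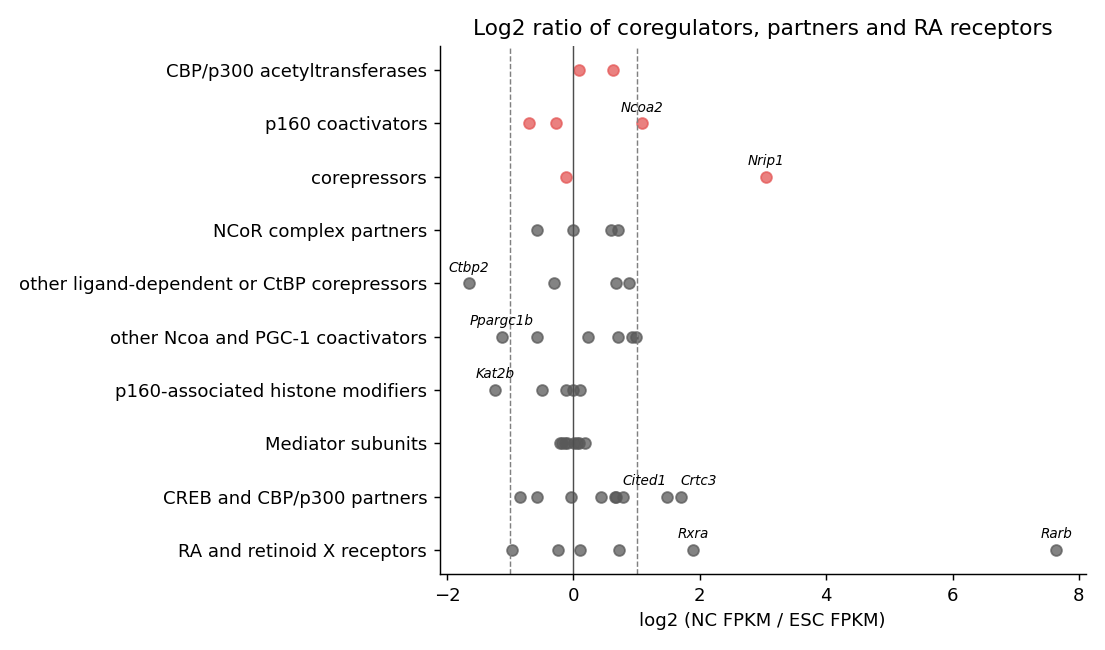
Log2 ratio of the NC to the ESC FPKM (horizontal axis) for each gene with at least 1 FPKM in either condition, 1 point per gene, with the 7 coregulators in red and the other lists in grey. Dashed lines mark 2-fold and genes past them are named. The 8 Mediator subunits examined gather within -0.22 and 0.19, whereas Nrip1 and Rarb lie far to the right.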

How the data were processed

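RNA-seq libraries (TruSeq) of 3 ESC and 3 NC samples of E14Tg2a cells were sequenced by the authors on an Illumina HiSeq. Per the labels and the methods, reads were aligned to mm10 with TopHat2 2.0.8 on top of Bowtie2 2.1.0, assembled with Cufflinks 2.0.2, merged with Cuffmerge and compared with Cuffdiff. The deposited FPKM values are the authors' estimates, 1 per gene and condition over 3 samples, so 0 columns hold a single sample. The heading of the NC column reads FPK and was taken as FPKM, since the median log2 ratio over genes was near 0. Columns of the authors' own comparison (log2 fold change, test statistic, p-value, q-value) were not used. Depth per sample, and so counting error, is unknown.

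Groups followed the sample titles. No test was run. Log2 ratios (NC/ESC) were computed without a pseudocount, and genes with at least 1 FPKM in either condition formed the background. The genes named are the 7 members, those on hand-written lists and, for each member, the gene nearest in level. Some listed genes are not reported here and were left out of the list counts. The members and lists were chosen with earlier results of these data known. The alternatives were pseudocounts of 0.1 and 1 FPKM, centring on the median gene, rescaling to a sum of 1000000 (TPM scale), a 1.5-fold limit, other filters and 1 row per gene name. Positions and transcripts were those of GENCODE M21 and promoters those of RefSeq on GRCm38.p6. The computation was tested on simulated data. Python 3.11.15, numpy 2.4.6, pandas 2.3.3 and matplotlib 3.10.9 were used.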

Additional observations from a re-analysis of the deposited data

How the results depend on the processing

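The ratios of the 7 coregulators were recomputed under 4 alternatives. Nrip1 stayed past 2-fold in all of them, with a log2 ratio between 2.46 (1 FPKM added) and 3.34 (TPM scale). Ncoa2 was past the limit except with 1 FPKM added, where its log2 ratio was 0.96 and the count of coregulators at least 2-fold higher was 1. With a limit of 1.5-fold 1 coregulator, Ncoa3, was lower. The TPM scale turned the sign of Ncoa1 and Ncor1, both within 1.5-fold. It also raised all FPKM levels, 1.30 times in ESCs and 1.59 times in NCs. Among all genes, 1658 were at least 2-fold higher and 1412 lower. Higher genes numbered 1074 with 1 FPKM added. At 1.5-fold there were 2741 higher and 2573 lower, with no filter on low values 2947 and 2403, and with at least 1 FPKM in both conditions 873 and 924. No paired analysis was possible because the table gives 1 value per condition, and for the same reason leaving out a replicate could not be run. The spread between samples and the depth limit every ratio given.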

Other observations

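Among the other corepressors examined, the paralogs Ctbp1 and Ctbp2 had opposite directions. Ctbp1 had 42.5 FPKM in ESCs against 78.2 FPKM in NCs, 1.84-fold higher, and Ctbp2 had 96.3 and 30.8 FPKM, 3.13-fold lower. Their CtBP proteins link repressors such as NRIP1 to chromatin-modifying enzymes. Ctbp2 exceeded Ctbp1 2.27-fold in ESCs, and Ctbp1 exceeded Ctbp2 2.54-fold in NCs. Ctbp1 was past 2-fold only on the TPM scale among the scales tried, and Ctbp2 was past it with the values as deposited and under each of the 4 alternatives. Lcor, a ligand-dependent corepressor, was low in both states at 0.964 and 1.54 FPKM, its relative Lcorl had a log2 ratio of -0.31, and Hr did not reach 1 FPKM.

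Of 9 genes for CREB factors and CBP/p300 partners, 2 were at least 2-fold higher in NCs and 0 at least 2-fold lower, beside 12.5% and 10.6% of all genes. On the TPM scale 3 were higher and 0 lower, beside 17.7% and 7.37%. With 9 genes picked by hand, these counts show nothing particular to the list. Crtc3, a coactivator of CREB, had 1.04 FPKM in ESCs against 3.37 FPKM in NCs, and Cited1, a CBP/p300-binding protein, had 2.27 and 6.36 FPKM. Creb1 was 1.73-fold higher, at 6.82 FPKM in ESCs against 11.8 FPKM in NCs, and it was past 2-fold on the TPM scale. Its relative Atf1 was 1.49-fold lower, at 47.2 and 31.6 FPKM (log2 ratio -0.58, and -0.29 on the TPM scale). Cited2 had 38.2 and 61.3 FPKM. The median log2 ratio of the 9 genes was 0.65, beside -0.03 over all genes.

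The gene nearest to each coregulator in log2 FPKM over both conditions was Eif4e3 for Crebbp, Arhgap5 for Ep300, Dcun1d3 for Ncoa1, Arhgef17 for Ncoa2, Pgm1 for Ncoa3, Ggnbp2 for Ncor1 and Twist1 for Nrip1. The distances were 0.141 for Twist1 and at most 0.0315 for the other genes. Within a distance of 0.2 lay 226 genes for Ep300 and 6 for Nrip1. With 2 conditions, such likeness says only that the levels were similar.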
